A study of Mus with 14 samples.

Results

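The cells described here are called basophil progenitors of mouse bone marrow. They were chosen by transcripts of Mcpt8 and Prss34, the serine proteases that mark the basophil lineage in mice. A cell was a member if it held at least 3 unique molecular identifiers (UMIs, each standing for 1 captured mRNA molecule) of Mcpt8, at least 1 of Prss34, and none of F13a1, Cd79a and Klf1, which mark monocyte, B and erythroid cells. There were 161 members among 70038 cells that passed quality filters, from 13 of 14 libraries.

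Basophils are granulocytes of blood that carry the high-affinity receptor for immunoglobulin E, of which Fcer1a encodes the ligand-binding chain and Ms4a2 the signal-amplifying chain, and they release histamine, lipid mediators and cytokines. They form in bone marrow from progenitors shared in part with mast cells and with granulocytes, under interleukin 3 and the factors Gata2 and Cebpa. Tumour necrosis factor acts through 2 receptors, Tnfr1 (Tnfrsf1a) and Tnfr2 (Tnfrsf1b), and Dnmt3a encodes a DNA methyltransferase that is often mutated in clonal haematopoiesis.

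Each library came from 1 secondary transplant recipient: donor marrow (CD45.2+) had first been placed in aged, lethally irradiated CD45.1+ mice in competition with CD45.1+ marrow, recombination was induced by poly(I:C), and marrow was moved to further irradiated aged hosts that were harvested 20 weeks later. Donor cells without lineage markers and with surface Kit were sorted, so Kit-negative mature basophils and lineage-positive cells were mostly outside the sort, and the shares below are shares of that gate. The groups were MxCre (n = 3 mice), labelled with the poly(I:C)-inducible recombinase alone, Dnmt3a (n = 4 mice) and the receptor groups Dnmt3a;Tnfr1KO, with n = 3, and Dnmt3a;Tnfr2KO, with n = 4. The poly(I:C) injection is common to all groups, while the labels name the recombinase only for the first. The exact Dnmt3a and receptor alleles are not given in the sources used here, and the labels do not say whether mice of a group shared a primary recipient, so p values measure the spread between these mice only.

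The libraries held 1955 to 7745 kept cells, with a median of 11275 to 39561 UMIs per cell. Dnmt3a replicate 1 stood apart, with 1955 of 7257 barcodes kept and no member. Granulocyte progenitors, the comparison population below, stood apart in Dnmt3a;Tnfr1KO replicate 1, with a median of 2362.5 UMIs against 14718 to 28959 in the other libraries and 17.3% of its kept cells. Of the kept cells, 1195 had a barcode that was also kept in another library, 1 of them a member, and no barcode was a member in more than 1 library. A caller based on simulated doublets marked 8 members, which were kept. Over all kept cells of a library, Tnfrsf1b was at 14.9 ± 1.76 CPM (counts per 1000000 UMIs, mean ± SD) in Dnmt3a (n = 4) and 4.82 ± 0.689 in Dnmt3a;Tnfr2KO (n = 4), with no overlap. Tnfrsf1a measured 47.3 ± 8.46 CPM in Dnmt3a and 36.2 ± 2.49 in Dnmt3a;Tnfr1KO (n = 3), where the 3 libraries (33.4 to 37.9 CPM) kept transcripts of it but lay below all libraries of the other groups (38.2 CPM or more). Which part of Tnfrsf1a was deleted is not given in the sources used here, and 3' counts outside a deleted part check nothing, so these libraries are called Tnfr1KO-labelled.

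Members ranged from 3 to 819 Mcpt8 UMIs, with a median of 22, and from 1 to 1455 Prss34 UMIs, with a median of 6. These values chose the cells and are given as a description. Just inside the limit, 18 members held exactly 3 Mcpt8 UMIs, and 14 further cells met every rule but held 2. Mcpt8 transcripts alone were common: 10.5% of all kept cells had 3 or more, and 3776 cells met every rule except that they lacked Prss34. At least 1 Prss34 UMI was found in 0.610% of kept cells, in 0.347% of 3745 cells with 3 or more Klf1 UMIs and in 0.417% of 3360 cells with 3 or more Cd79a UMIs, where the gene is not expected; per-library median depth in those cells was 14783 to 44504 and 2315 to 15752 UMIs. A single Prss34 UMI, the value of 47 members, was thus also found in cells of other lineages, whereas the joint rule for Mcpt8 and Prss34 was met by 6 of the Klf1 cells and none of the Cd79a cells. Of those 6, 2 were among 126 Klf1 cells of Dnmt3a replicate 3 (1.59%) and 2 among 222 of Dnmt3a replicate 4 (0.901%). The same joint rule was met by 0.871% and 0.722% of all kept cells of these libraries. With the 3 excluded genes at 0 as well, 0.540% and 0.282% were members. Prss34 was found in 1.498% and 1.496% of kept cells in these libraries and in 0.0512% to 0.734% in the others. Without the 3 excluded genes the rule took 242 cells, 50 in place of 31 in Dnmt3a replicate 3 and 41 in place of 16 in Dnmt3a replicate 4.

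The label was checked on the 2 given markers the rule did not use. Ms4a2 was detected in 145 and Fcer1a in 133 of the 161 members, at least 1 of them in 150 and both in 128. Summed over the members of a mouse, Ms4a2 reached 338 to 1222 CPM (median 574) and Fcer1a 229.6 to 1105 CPM (median 566) over 13 mice. In granulocyte progenitors, which were kept cells with 3 or more UMIs of both Elane and Mpo and none of the 5 gate genes, the same genes reached 2.56 to 14.7 CPM (median 7.46) and 0 to 8.60 CPM (median 1.92) over 14 mice, so no mouse of either population overlapped. The members therefore carried IgE receptor transcripts, except 11 cells that held none. Early basophil-mast progenitors, defined below and chosen in part by Fcer1a, also held them. Over all cells Ms4a2 and Fcer1a were at 156 and 189 CPM there, against 518 and 536 in members. The 6 Cma1-rich members described below all held Fcer1a as well. The 2 markers thus set members apart from granulocyte progenitors but do not part basophil from mast cell progenitors.

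**Figure D1:**
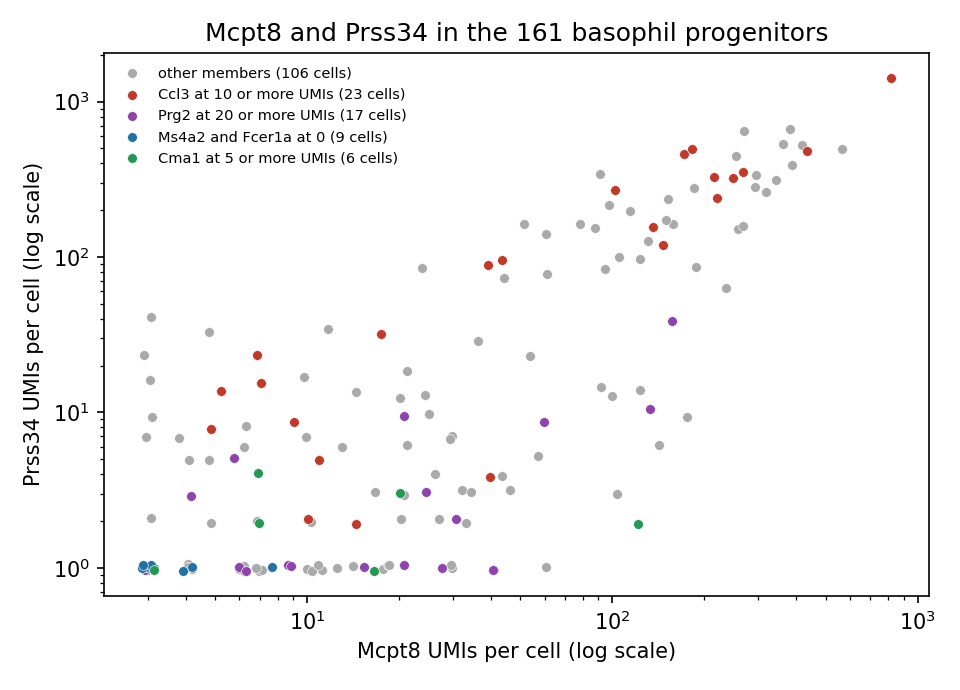
Mcpt8 against Prss34 UMIs per cell, both on log scales, for the 161 members (1 point a cell, moved by up to 5% so that points do not cover each other), coloured by the ranges described in the text. Cells with 100 or more Mcpt8 UMIs mostly hold many Prss34 UMIs, while the 9 cells without IgE receptor transcripts lie at 3 to 8 Mcpt8 UMIs and 1 Prss34 UMI.

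The members were not uniform. The ranges that follow were set after the values had been seen, so they are a description without tests, and a range is not a cell type. In 17 cells from 9 mice Prg2, the major basic protein of eosinophil granules, lay at 46 UMIs or more, whereas the next cell held 4. These cells held 4042 of 4062 Prg2 UMIs of all members, with 544 of 642 of Prg3, a related granule protein, and 115 of 136 of Epx, the eosinophil peroxidase. They also held 273 of 454 UMIs of Cebpe, a factor of granule maturation, and summed to 6067 CPM of Mpo and 3244 of Elane, against 3458 and 801 in the 106 cells outside all ranges. Ms4a2 was still found in 15 of the 17, at 261 CPM against 609.

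In 6 cells from 4 mice Cma1, a chymase of connective tissue mast cells, lay at 24 to 268 UMIs, and the next cell held 1. They carried all 217 UMIs of the tryptase Tpsb2 and all 124 of Mcpt4 found in members, and all 6 held Kit, the stem cell factor receptor that mast cells keep, at 2186 CPM against 81.4 in the 106 cells. None held Mpo. Their depth was low, with a median of 3531 UMIs against 16280.

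In 23 cells from 7 mice the chemokine gene Ccl3 reached 11 to 95 UMIs; unlike the ranges above it had no gap, since the next cell held 9. These cells were shallow, with a median of 5362 UMIs, and none had a Kit UMI, whereas 66 of the 106 did. They summed to 18597 CPM of Mcpt8 and 29122 of Prss34, against 4460.2 and 4623. Besides Ccl3 they held 711 of 803 UMIs of the chemokine Ccl4 and 106 of 126 of the cytokine oncostatin M (Osm), and Cd200r3, an activating receptor of basophils, stood at 692 CPM against 69.4. They made up 13 of the 53 members from Dnmt3a mice, 3 of 24 from MxCre, 4 of 18 from Tnfr1KO-labelled and 3 of 66 from Dnmt3a;Tnfr2KO mice. All 3 MxCre cells came from replicate 2 and all 4 Tnfr1KO-labelled cells from replicate 1. Dnmt3a replicates 2, 3 and 4 held 4, 4 and 5, and Dnmt3a;Tnfr2KO replicates 2 and 4 held 1 and 2. Cells of 1 mouse are not replicates, so no genotype difference is read from these counts.

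The last range held 9 deep cells (median 35596 UMIs) without any UMI of Ms4a2 or Fcer1a; 2 more such cells fell in the ranges above. They had 3 to 8 Mcpt8 UMIs and exactly 1 Prss34 UMI, 58.3 CPM of Cpa3, a granule carboxypeptidase, against 2106 in the 106 cells, and 3738 CPM of Elane and 3885 of Prtn3, neutrophil proteases, against 801 and 1276. For these cells the label was not borne out by the markers, and 6 of the 9 came from Dnmt3a replicate 3. The label is also uncertain for the Prg2-rich and Cma1-rich cells. Fcer1a was found in 10 of the 17 Prg2-rich cells, whose median was 1 Prss34 UMI, and Hdc in 1 of the 6 Cma1-rich cells. Of the 18 Tnfr1KO-labelled members, 4 were Prg2-rich and 2 Cma1-rich. All these cells were kept in the shares, ratios and fits below.

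**Figure D2:**
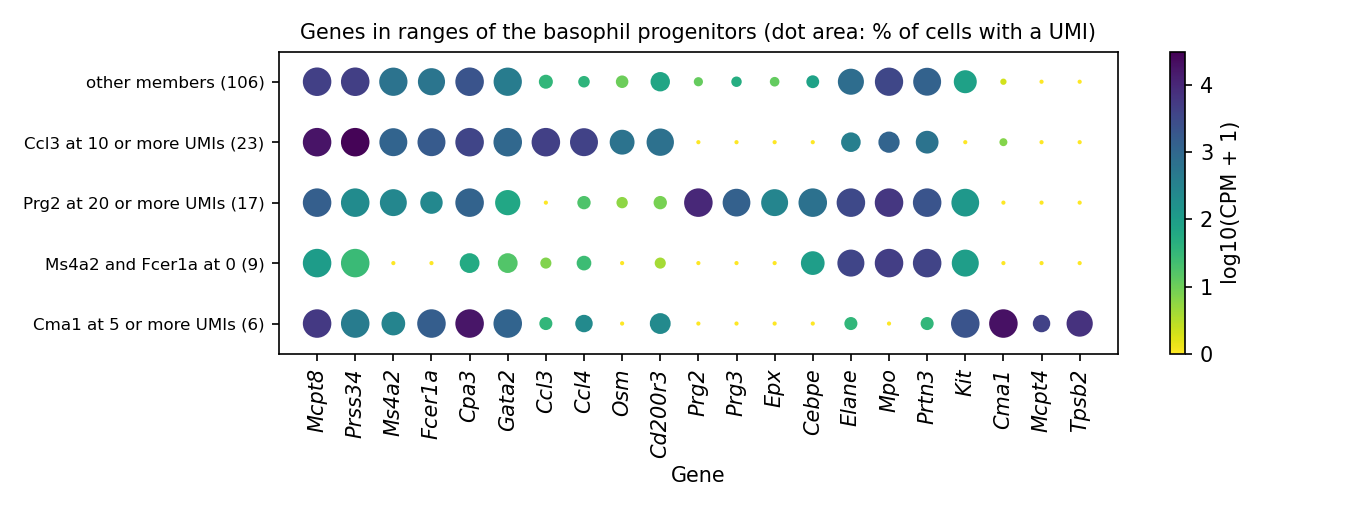
Genes (columns) in the 5 ranges of members (rows, number of cells in parentheses); colour gives log10(CPM + 1) of the summed UMIs and dot area the percentage of cells with a UMI. Prg2, Prg3 and Epx are concentrated in 17 cells, Cma1, Mcpt4 and Tpsb2 in 6 cells, and Ccl3, Ccl4 and Osm in 23 cells.

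Markers of other cell types were summed over the members of each mouse. Of 12 mast cell genes 6 were detected, at 0 to 5.39 CPM per mouse in MxCre, 0 to 111 in Dnmt3a, 25.4 to 6608 in Tnfr1KO-labelled and 0 to 1131 in Dnmt3a;Tnfr2KO. All 10 eosinophil genes were detected, at 7.66 to 2262, 143 to 2019, 67.3 to 4435 and 37.8 to 6020.1 CPM in the same order. Of 12 neutrophil lineage genes 11 were detected, at 4239.6 to 12721 CPM over 13 mice, while Ltf, a late granule gene, was at 0. Of 9 B lineage genes (Cd79a left out) 6 were detected, with Pax5 and Ms4a1 among those at 0, and the sum was 12.7 to 70.8 CPM. Of 10 genes of T, NK and innate lymphoid cells 8 were at 0, including Cd3e and Ncr1, but Nkg7 was found in 143 members and the sum was 238 to 912 CPM; Nkg7 stood at 612 CPM over all members and at 869 in granulocyte progenitors. All 11 monocyte and macrophage genes other than F13a1 were detected, led by Ms4a6c in 109 members, at 94.2 to 402 CPM per mouse. Of 10 dendritic cell genes 7 were detected, at 153 to 752 CPM per mouse, with Siglech, Cd209a and Spib at 0 and 160 of the 166 Cd74 UMIs in 1 cell. Of 10 erythroid genes 9 were detected, and 1 cell of MxCre replicate 3 held 1515 of the 1516 Hbb-bs UMIs of that mouse's members and took its erythroid sum to 19139 CPM.

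Basophil progenitors were rare in every group. In MxCre mice 8 of 6177, 8 of 2876 and 8 of 4613 kept cells were members (0.130%, 0.278% and 0.173%). In Dnmt3a mice the numbers were 0 of 1955, 6 of 2756, 31 of 5742 and 16 of 5680 (0%, 0.218%, 0.540% and 0.282%). The exact Clopper-Pearson interval, which covers counting error only, ran from 0.367% to 0.765% in Dnmt3a replicate 3 and from 0% to 0.189% in Dnmt3a replicate 1, where the floor of 3 cells lies at 0.153%. Tnfr1KO-labelled mice had 9 of 6487, 5 of 3691 and 4 of 3173 (0.139%, 0.135% and 0.126%). Their intervals ran from 0.0635% to 0.263%, 0.0440% to 0.316% and 0.0344% to 0.322%. These 3 shares thus lay closer together than their counting error, and no small spread of the group is read from them. In Dnmt3a replicate 4 only 3068 of the 5680 kept cells were free of Cd79a, a B cell gene, so that other cells of the sort enter its share. The higher Dnmt3a shares came from replicates 3 and 4, the libraries with the highest percentage of kept cells with Prss34; the part of free RNA in the shares was not tested. Dnmt3a;Tnfr2KO mice had 22 of 7745, 13 of 5903, 11 of 6429 and 20 of 6811 (0.284%, 0.220%, 0.171% and 0.294%).

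The mean share was 0.194% ± 0.0764 (SD, n = 3) in MxCre and 0.260% ± 0.222 (n = 4) in Dnmt3a, a difference within the spread between mice (exact two-sided permutation p = 0.69, adjusted over 8 tests 0.88). Without Dnmt3a replicate 3 the difference in percentage points turned from 0.0661 to -0.0272. Tnfr1KO-labelled mice (0.133% ± 0.00658, n = 3) lay 0.126 percentage points below Dnmt3a, also within the spread (exact permutation p = 0.40, adjusted 0.78), and without Dnmt3a replicate 3 the difference was -0.0330 points. Dnmt3a;Tnfr2KO mice (0.242% ± 0.0576, n = 4) lay 0.0176 points below Dnmt3a (exact permutation p = 0.89, adjusted 0.89), which turned to 0.0758 points above without Dnmt3a replicate 3. All Dnmt3a;Tnfr2KO mice lay above all Tnfr1KO-labelled mice, by 0.109 points on average, with an exact permutation p of 0.057 and an adjusted p of 0.46. The counting intervals of the mice of these groups overlapped. The smallest p that groups of 3 and 4 or of 4 and 4 allow is 0.029 before adjustment. A single comparison at that p would not pass after adjustment over 8 tests. A share or ratio that did not pass is therefore no sign that the groups were alike.

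**Figure D3:**
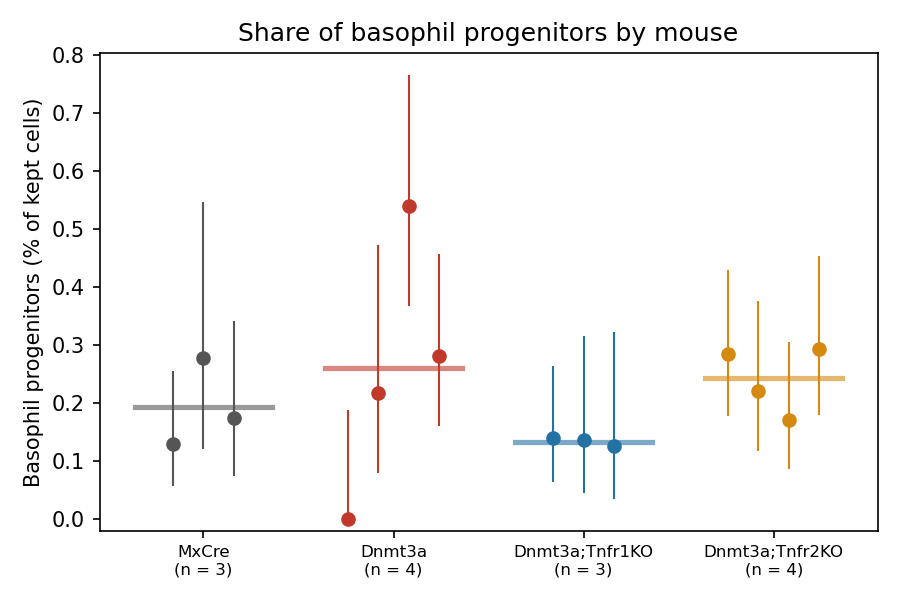
Members as a percentage of kept cells, 1 point a mouse with its exact 95% counting interval, and the group mean as a line. Dnmt3a mice run from 0% to 0.540% and span the values of all other groups, while the 3 Tnfr1KO-labelled mice lie between 0.126% and 0.139%, on 4 to 9 cells each.

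Members were also set against early basophil-mast progenitors, kept cells with UMIs of Fcer1a and Gata2 but none of the 5 gate genes, of which there were 1128, between 14 and 164 in a mouse. The log2 ratio of members to early cells, with 1 cell added to each, was -4.03, -3.08 and -3.85 in MxCre and -4.64, -2.62, -0.75 and 0.18 in Dnmt3a mice. It was -2.46, -3.52 and -2.89 in Tnfr1KO-labelled and -2.27, -2.60, -3.44 and -2.97 in Dnmt3a;Tnfr2KO mice. The ratio thus spread most within Dnmt3a, where replicate 4 had 16 members for 14 early cells. Dnmt3a exceeded MxCre by 1.69 with overlapping mice, which did not pass the test (exact permutation p = 0.29, adjusted 0.78), and the other differences lay at -0.998, -0.862 and 0.14 with adjusted p of 0.78, 0.78 and 0.88.

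Against early basophil-mast progenitors the members had higher levels of many basophil effector genes, of 2 IgE receptor chains (Ms4a2 and Fcer1g) and of primary granule genes, and lower levels of platelet lineage genes. The fit took the 3 mice with at least 20 cells of both populations (Dnmt3a replicate 3 and Dnmt3a;Tnfr2KO replicates 1 and 4), with the mouse as a block. No MxCre mouse was among them, so values from these 3 mice describe mice with the Dnmt3a label only. Gate genes were left out. Genes that vary together with them were kept, so some differences may follow from the choice of cells, which was not tested. Of 7086 genes, 393 rose (5.55%) and 201 fell (2.84%) at an adjusted p below 0.05. In 13 mice with at least 4 cells of both, a threshold added after the cell numbers were known, 863 of 7807 rose (11.1%) and 782 fell (10%).

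Of 4 tested genes of the megakaryocyte and platelet list 3 fell and 0 rose (median log2 difference -2.67). Of 8 tested neutrophil lineage genes 6 rose, among them Elane, Mpo, Prtn3 and Ctsg, and 0 fell, whereas in 13 mice 5 rose and 5 fell of 11, the latter S100a8, S100a9, Camp, Ngp and Ltf. Of the 4139 Elane UMIs of all members, 1329 lay in the 17 Prg2-rich cells and 1219 in the 9 cells without IgE receptor transcripts. For Mpo these numbers were 2485 and 1600 of 10868, for Prtn3 876 and 1267 of 4677, and for Ctsg 1256 and 1359 of 9171. Of 3 tested erythroid genes Car1 fell and 0 rose, and in 13 mice 2 fell and 1 rose of 7 (median log2 difference 0.35). Of 3 tested monocyte and macrophage genes Ly6c2 and Ms4a6c rose and 0 fell (median log2 difference 1.62). In 13 mice 4 of 4 genes of that list rose (median log2 difference 2.08). Of 5 tested stem and multipotent genes Kit and Meis1 fell and Cd34 rose, and in 13 mice 5 fell and 1 rose of 8.

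Among effector proteins, 12 of the 21 tested genes rose and 2 fell (median log2 difference 1.33), against a median of -0.01 for all genes; in 13 mice 17 rose and 2 fell of 23. Cpa3 stood at 1829 ± 464 CPM (mean ± SD, n = 3 mice) in members and 516 ± 166 in early cells, a difference of 1.92 ± 0.14 on the log2 scale (SE, adjusted p = 8.6e-13), and was higher in members in 13 of 13 mice. Hdc, which makes histamine, rose by 1.62 ± 0.17 on the log2 scale (SE, adjusted p = 2.1e-09) and Alox5, which starts leukotriene synthesis, by 2.33 ± 0.23 (adjusted p = 6.8e-10). Cyp11a1, a steroid-forming enzyme, and Csf1, a macrophage growth factor, rose by 2.61 ± 0.32 and 2.75 ± 0.30. Slc18a2, which loads granules with amines, differed by 0.18 ± 0.21 and did not pass (adjusted p = 0.72). Gzmb, the protease granzyme B, fell by 3.96 on the log2 scale in the 3 mice (SE 0.48, adjusted p = 9.2e-08), although not in each of them, and differed by -1.15 ± 0.50 in 13 mice, which did not pass (adjusted p = 0.10). Of its 127 UMIs in members, 108 lay in the 6 Cma1-rich cells.

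Of the IgE receptor list, 3 of the 14 tested genes rose and 0 fell (median log2 difference 0.10; in 13 mice 5 rose and 0 fell of 16). The risers were Ms4a2 (1.48 ± 0.14), the common signalling chain Fcer1g (1.65 ± 0.14) and Ms4a3, a relative of Ms4a2 (1.66 ± 0.10). Of surface receptors, 6 of the 19 tested genes rose and 2 fell (median log2 difference 0.54; in 13 mice 18 rose and 1 fell of 24, median 0.95), with Il3ra and Csf2rb, the chains of the interleukin 3 receptor, at 1.23 ± 0.21 and 1.06 ± 0.19 and Cd200r3 at 3.43 ± 0.36. Kit fell by 0.70 on the log2 scale (adjusted p = 0.0073).

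Lineage transcription factors moved in both directions: 7 of the 19 tested genes rose and 7 fell (median log2 difference 0.09). Cebpe, Cebpa and Cebpb, factors of granulocyte development, rose by 3.52 ± 0.30, 2.08 ± 0.20 and 1.55 ± 0.22. Cebpe was found in 40 of the 161 members, and 273 of its 454 UMIs lay in the 17 Prg2-rich cells. Lmo4 rose by 0.99 ± 0.12. Zfpm1, the cofactor of Gata1, Meis1, a stem cell factor, and Gfi1b, an erythroid and megakaryocyte repressor, differed by -2.81 ± 0.28, -2.07 ± 0.25 and -1.82 ± 0.39, and Gata1 by -0.85 ± 0.25. Gata2 was used to choose the early cells and is given only as a level, 356 ± 43.2 CPM in members and 317 ± 23.1 in early cells.

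Other genes of largest difference were the granule genes Prg2 (5.82 ± 0.22) and Prg3 (6.31 ± 0.30), of which these 3 mice held 0, 2 and 3 of the 17 cells described above, and Epx, which was at 0 UMIs in early cells of these mice and so at least 68.5-fold higher in members (floor of 3 UMIs over the group). Ctsg, the neutrophil protease cathepsin G, rose by 3.28 ± 0.09, and Clec12a, an inhibitory myeloid receptor, by 3.91 ± 0.20. The factor Ets1 rose by 4.06 ± 0.42, and Arsb, Rnase12 and Slpi by 3.70 ± 0.30, 3.61 ± 0.18 and 3.30 ± 0.35. Among genes that fell in each of the 3 mice the largest differences included Pf4, a platelet chemokine (-3.67 ± 0.41), Mfsd2b, a lipid exporter of red cells and platelets (-3.64 ± 0.44), Plxnc1 (-3.10 ± 0.43) and Car2, a carbonic anhydrase (-2.56 ± 0.17). Ddah2, Prdx4, Ctla2a, Nrgn and Adgrl2 also fell, by 1.92 to 2.42 on the log2 scale.

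**Figure D4:**
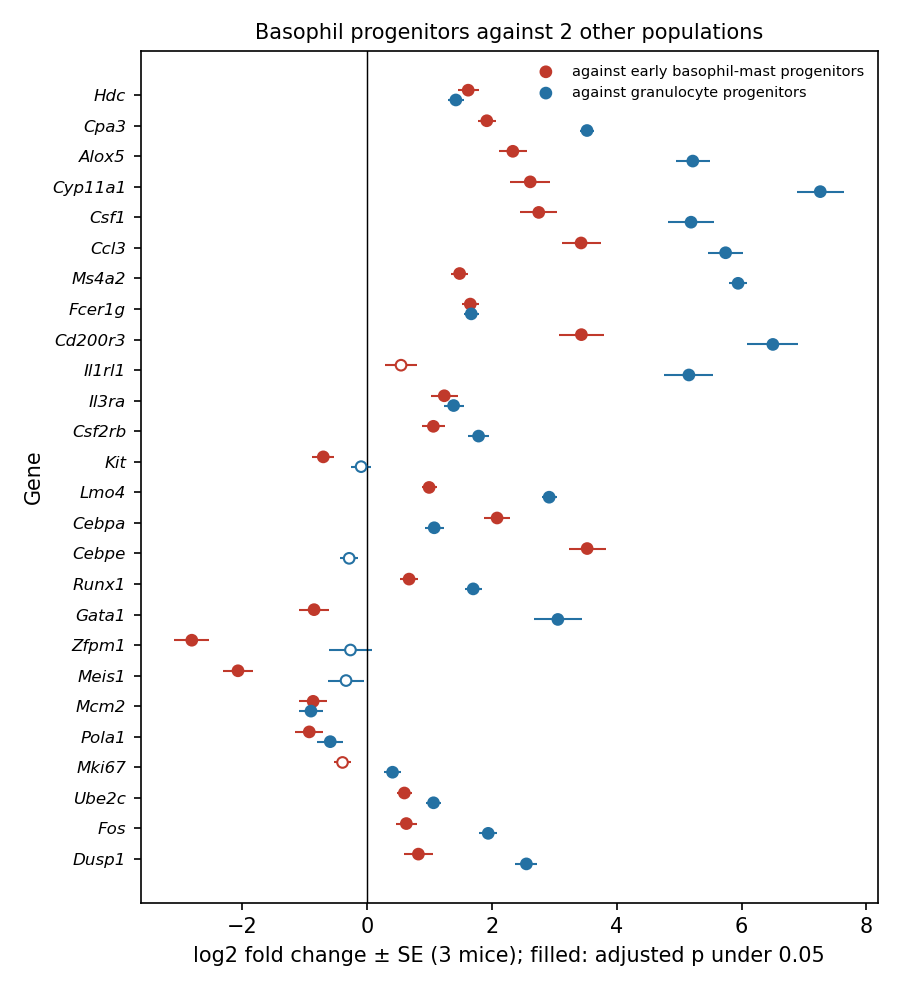
Log2 fold change ± SE of members against early basophil-mast progenitors (red) and granulocyte progenitors (blue) in 3 mice, for genes of the lists; filled points passed an adjusted p of 0.05. Effector genes such as Cpa3, Cyp11a1 and Csf1 lie right of 0 in both, Zfpm1 and Meis1 left of 0 against early cells, and Mcm2 and Pola1 left of 0 in both.

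Against granulocyte progenitors, many basophil genes were higher in members and secondary granule genes of neutrophils lower. Their rule left out cells with any UMI of the gate genes, although 32.5% of all kept cells held Mcpt8. After the thinning described below it took 1806, 2130 and 2007 cells in Dnmt3a replicate 3 and Dnmt3a;Tnfr2KO replicates 1 and 4. Before thinning it took 608, 862 and 727. How this choice shaped the differences from granulocyte progenitors, here and below, was not tested. In the same 3 mice, 709 of 11318 genes rose (6.26%) and 739 fell (6.53%); in 13 mice 1260 of 11110 rose (11.3%) and 1955 fell (17.6%). Of effector proteins, 16 of the 23 tested genes rose and 1 fell (median log2 difference 2.09), against -0.06 for all genes; in 13 mice 18 rose and 2 fell of 23. Cyp11a1 stood at 103 ± 45.5 CPM in members and 0.609 ± 0.200 in granulocyte progenitors (n = 3), a difference of 7.26 ± 0.38 on the log2 scale (SE, adjusted p = 6.9e-78), with a higher level in 13 of 13 mice. The p rests on 3 mice and a spread pooled over genes. Csf1 and Alox5 differed by 5.19 ± 0.37 and 5.22 ± 0.27, and the cytokine genes Il4 and Il6 by 5.52 ± 0.73 and 6.73 ± 0.89, at 16.8 ± 3.66 and 12.8 ± 4.71 CPM in members. Il4 was detected in 49 and Il6 in 39 of the 161 members, and Il13 in 1.

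Of surface receptors, 16 of the 26 tested genes rose and 2 fell (median log2 difference 1.28), and in 13 mice 19 rose and 4 fell of 28. Il1rl1, the interleukin 33 receptor, rose by 5.15 ± 0.39, Cd200r3 by 6.50 ± 0.41 and Ifitm1 by 2.58 ± 0.12. Of transcription factors, 8 of the 26 tested genes rose and 3 fell (median log2 difference 0.33), and in 13 mice 11 rose and 5 fell of 25: Gata2 (3.43 ± 0.13), Gata1 (3.05 ± 0.38), Lmo4 (2.92 ± 0.12) and Ikzf2 (2.32 ± 0.13) rose, and Gfi1, a repressor needed for neutrophils, differed by -2.69 ± 0.31. Markers of other cell types moved as well: 4 of 5 tested eosinophil genes rose (Prg2, Prg3, Siglecf and Epx), 2 of 3 mast cell genes (Cma1 and Tpsb2) and 5 of 7 dendritic cell genes. In 13 mice 4 of 4 mast cell and 4 of 7 dendritic cell genes rose. Cma1-rich cells held 606 of the 609 Cma1 UMIs and all 217 Tpsb2 UMIs of members. Of these cells, Dnmt3a replicate 3 and Dnmt3a;Tnfr2KO replicate 1 held 1 each and Dnmt3a;Tnfr2KO replicate 4 held 0. Single cells held 160 of the 166 Cd74 and 69 of the 71 H2-Eb1 UMIs of members. Against early cells 0 of 3 tested mast cell genes rose and Mcpt4 fell (median log2 difference -1.22). Gzmb, most of whose UMIs in members lay in the Cma1-rich cells, was among the effector genes that rose. Csrp3 and Rnase12 rose by 6.43 ± 0.15 and 5.56 ± 0.15. Camp, a neutrophil granule peptide, was at 0 UMIs in members of the 3 mice and so at least 126-fold lower than in granulocyte progenitors, where it reached 298 CPM. The calcium-binding proteins S100a8 and S100a9, the granule protein Ngp and Wfdc21 differed by -6.64 ± 0.21, -6.38 ± 0.22, -5.79 ± 0.38 and -6.21 ± 0.42. Of 10 tested neutrophil lineage genes 9 fell and 0 rose, the primary granule genes Ctsg and Prtn3 among them. Granulocyte progenitors were chosen by Elane and Mpo, so lower Ctsg and Prtn3 in members may in part follow from that choice, which was not tested. Whether lower Camp, S100a8, S100a9 and Ngp in members in part follow from leaving out granulocyte progenitors with Mcpt8 was not tested either. Ctsg was at 2086 to 4005 CPM (median 3244) in members and 2272 to 6013 CPM (median 4927) in granulocyte progenitors, with overlap between mice. Prtn3 was at 336 to 2539 CPM (median 1223) in members and 2689 to 8514 CPM (median 6751) in granulocyte progenitors, without overlap.

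Most S phase genes that passed the test fell in members, and most G2 and M phase genes that passed it rose, few of them against early cells. Against early cells, 0 of the 30 tested genes rose and 8 fell (median log2 difference -0.37), and against granulocyte progenitors 1 of the 30 tested genes rose and 18 fell (median log2 difference -0.59). Mcm2, a helicase subunit loaded at replication origins, differed by -0.87 ± 0.22 and -0.90 ± 0.20, and Pola1, a DNA polymerase subunit, by -0.93 ± 0.22 and -0.59 ± 0.21. For G2 and M genes, 3 of the 30 tested genes rose and 0 fell (median log2 difference 0.28) against early cells, while 18 of the 30 tested genes rose and 0 fell (median log2 difference 0.47) against granulocyte progenitors. Ube2c, which acts in mitotic exit, rose by 0.59 ± 0.12 and 1.06 ± 0.12. In 13 mice, S phase genes gave 0 rises and 20 falls against early cells, and G2 and M genes 2 rises and 1 fall, that of the proliferation gene Mki67. Against granulocyte progenitors the 13 mice gave 1 rise and 23 falls of S phase genes, and 17 rises and 0 falls of G2 and M genes. Those cells were chosen without Mcpt8, and the part of that choice in these counts was not tested. Of all genes, 5.55% rose and 2.84% fell against early cells in 3 mice, and 11.1% and 10% in 13 mice. Against granulocyte progenitors these shares were 6.26% and 6.53%, and 11.3% and 17.6%. In 13 mice the G2 and M rises against early cells were thus not above the share of all genes. Mki67 was detected in 100 members.

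Immediate early genes, which respond within minutes to stimuli and also to tissue handling, rose in part. Against early cells 4 of the 15 tested genes rose and 0 fell (median log2 difference 0.35; in 13 mice 8 rose and 0 fell of 16), and against granulocyte progenitors 12 of the 18 tested genes rose and 0 fell (median log2 difference 1.71), with 13 rises and 1 fall of 19 in 13 mice. Fos differed by 0.63 ± 0.17 and 1.94 ± 0.15, Ier3 by 0.96 ± 0.18 and 2.88 ± 0.15, and Egr1 by -0.02 ± 0.23 (adjusted p = 0.98) and 3.38 ± 0.25. Whether handling had a part in this was not tested.

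Of TNF receptor and signalling genes, 1 of 16 tested rose and 0 fell against early cells (in 13 mice 2 rose and 2 fell of 18). These counts were near the shares of all genes, 5.55% and 2.84% in 3 mice and 11.1% and 10% in 13 mice. Against granulocyte progenitors 2 of 24 rose and 1 fell (median log2 difference 0.07), near the 6.26% and 6.53% of all genes. In 13 mice 5 rose and 3 fell of 24, against 11.3% and 17.6% of all genes. Tnfrsf1a differed by -1.28 ± 0.25 on the log2 scale (SE, edgeR adjusted p = 7.1e-06) and was lower in members in 13 of 13 mice. These 13 include the 3 Tnfr1KO-labelled mice, where the gene is targeted and members held 0, 0 and 1 UMIs of it. Members of the other mice held 1 to 16, and 58 were found in all members, so the sign in a single mouse rests on few UMIs. Nfkbia and Tnfaip3, inhibitors of NF-kB, rose by 1.62 ± 0.15 and 3.30 ± 0.49. Of the DNA methylation list, 1 of the 10 tested genes rose and 2 fell (median log2 difference -0.30) against early cells: Tet2, which oxidises methylated cytosine, rose by 1.07 ± 0.29, and Dnmt1 and Uhrf1, which copy methylation at replication, differed by -0.51 ± 0.15 and -1.26 ± 0.26. Dnmt3a itself differed by -0.64 ± 0.38 and did not pass (adjusted p = 0.38). Of the survival and death list 0 of 8 tested genes passed the edgeR test against early cells in 3 mice, and in 13 mice 1 of 9 fell, Trp53. Of the interferon list 1 of 8 rose in 3 mice, Ly6e (0.74 ± 0.09), and in 13 mice 1 rose and 2 fell of 10, the latter Gbp7 and Ifi47 (median log2 difference -0.30). Counts of the methylation, survival and interferon lists stand beside the same shares of all genes, 5.55% and 2.84% in 3 mice and 11.1% and 10% in 13 mice. With so few tested genes nothing is read from them about a list as a whole.

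Members also varied with the fraction of Mcpt8 among their UMIs. Within each mouse they were split at the median of that fraction, and 10 mice had at least 4 cells in both ranges, with 71 cells in the higher and 75 in the lower range. The cut uses Mcpt8, which also chose the members, so the differences between the ranges are given as a description and nothing is rested on them. It is also arbitrary, since 33 of the 146 cells lay within 1.5 times of it. The higher range was shallower (median 12965 against 19090 UMIs) and held 15 of the 19 Ccl3-rich and 4 of the 13 Prg2-rich cells of these mice, and none of the 9 without IgE receptor transcripts, so differences in Ccl3 and in the IgE receptor genes in part restate the split.

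A fit between the ranges called 6.6% of 2453 genes higher and 2.85% lower, and nothing is read from these shares. Levels are given as mean ± SD over the 10 mice. Fcer1a was at 1303 ± 629 CPM in the higher and 294 ± 215 in the lower range, and Fcer1g, the common signalling chain, at 1293 ± 631 and 292 ± 69.3, both higher in 10 of 10 mice. The granule carboxypeptidase Cpa3 was at 3472 ± 1072 and 1308 ± 424 (higher in 9 of 10 mice), and Cd200r3 at 234 ± 130 and 31.3 ± 43.6 (10 of 10). The chemokine receptor Ccr1 was at 89.99 ± 67.4 and 4.91 ± 8.28, and the factor Ets1 at 213 ± 156 and 26.3 ± 20.5, both higher in 10 of 10 mice. Genes with lower levels in the higher range were Kit (51.2 ± 34.5 against 110.2 ± 47.8, lower in 9 of 10 mice), Cd34, a surface protein of progenitors (87.4 ± 70.4 against 182 ± 55.5, in 9 of 10), and Npm1, a nucleolar chaperone (1317 ± 480.3 against 2296 ± 331, in 10 of 10). The immediate early gene Fos was at 568 ± 655 and 178 ± 126, higher in 9 of 10 mice.

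Few genes differed between genotypes within the members. With at least 20 cells per mouse no comparison had 2 mice in each group, so a threshold of 4 cells was used, added after the cell numbers were known, which left 3 mice in each of MxCre, Dnmt3a and Tnfr1KO-labelled and 4 in Dnmt3a;Tnfr2KO. Of 2310 genes, 0 (0%) were called between Dnmt3a and MxCre, where 202 had an unadjusted p below 0.05 and DESeq2 called 12. Tnfr1KO-labelled mice differed from Dnmt3a in 5 genes (0.216%) and Dnmt3a;Tnfr2KO from Dnmt3a in 2 (0.0866%), all higher. Between Dnmt3a;Tnfr2KO and Tnfr1KO-labelled mice 0 (0%) were called, while 162 passed an unadjusted p of 0.05 and DESeq2 gave 1 call. In simulated data with an assumed dispersion of 0.3, 32.0% of genes changed by 2 and 83.9% of those changed by 3 on the log2 scale were recovered between Dnmt3a and MxCre. None of the 11 gene lists had a called member in any of the 4 comparisons. Only list genes that passed the filter on low counts were tested, and Tnfrsf1a, Tnfrsf1b, Dnmt3a and Tnf did not pass it.

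Ckm, the muscle creatine kinase, was higher with either receptor label. Its level in members was 10.8, 26.9 and 23.0 CPM in MxCre, 16.97, 38.1 and 19.7 in Dnmt3a, 110.1, 175 and 254 in Tnfr1KO-labelled and 218, 203, 56.7 and 139.5 in Dnmt3a;Tnfr2KO mice. The receptor groups did not overlap the other groups. The differences from Dnmt3a were 2.68 ± 0.48 (log2, SE, adjusted p = 0.038) and 2.58 ± 0.41 (log2, SE, adjusted p = 0.0082). Both comparisons share the Dnmt3a mice. For Tnfr1KO-labelled mice the Ckm call was lost without Dnmt3a replicate 3, Dnmt3a replicate 4 or Tnfr1KO-labelled replicate 3. For Dnmt3a;Tnfr2KO mice it was lost without Dnmt3a replicate 4 and with at least 6 Mcpt8 UMIs per member. With the replicate number as a block both Ckm calls were lost too (edgeR adjusted p of 0.12 and 0.056). DESeq2 gave no adjusted p for Ckm in either comparison. Granulocyte progenitors of the same mice held 4.41, 17.4, 21.8 and 15.2 CPM in Dnmt3a, 173 (the shallow replicate 1), 195 and 241 in Tnfr1KO-labelled and 243, 238, 78.4 and 116 in Dnmt3a;Tnfr2KO mice. The test of whether the difference itself differed between the populations gave -1.12 ± 0.42 (adjusted p = 0.35) and -0.71 ± 0.37 (adjusted p = 1).

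The ribosomal protein genes Rps28, Rps29 and Rpl38 and the gene Tsc22d4 were the other calls for Tnfr1KO-labelled against Dnmt3a mice. Rps28 in members was 6027, 5269 and 4589 CPM in MxCre, 2596, 2131 and 2152 in Dnmt3a, 5106, 6029.7 and 6977 in Tnfr1KO-labelled and 7539, 5429, 4750.1 and 2863 in Dnmt3a;Tnfr2KO mice. All Dnmt3a mice lay below all others, and Dnmt3a;Tnfr2KO replicate 4 was nearest to them. The difference of Tnfr1KO-labelled from Dnmt3a mice was 1.495 ± 0.27 (log2, SE, adjusted p = 0.038), and those of Rps29, Rpl38 and Tsc22d4 were 1.56 ± 0.30 (log2, SE, adjusted p = 0.038), 1.42 ± 0.28 (log2, SE, adjusted p = 0.038) and 1.37 ± 0.27 (log2, SE, adjusted p = 0.038). In granulocyte progenitors Rps28 had the same order of groups, with 2711, 2839.6, 2132 and 2085 CPM in Dnmt3a and 5279, 5878 and 6013 in Tnfr1KO-labelled mice, and the difference between the populations was -0.09 ± 0.19 (adjusted p = 0.93). These calls were lost without Dnmt3a replicate 3, Dnmt3a replicate 4 or Tnfr1KO-labelled replicate 3, when 0 genes were called. They were also lost with the replicate number as a block (edgeR adjusted p of 0.11 for Rps28, Rps29 and Rpl38 and 0.27 for Tsc22d4).

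The predicted gene Gm47283 was the other call in Dnmt3a;Tnfr2KO mice, at 153, 419, 236 and 274 CPM against 33.9, 68.3 and 59.1 in Dnmt3a, with no overlap and a difference of 2.28 ± 0.34 (log2, SE, adjusted p = 0.0075). MxCre mice held 135, 233 and 130.2 CPM. Granulocyte progenitors had 204, 413, 272 and 338 CPM in Dnmt3a;Tnfr2KO and 95.8, 93.0, 86.0 and 83.3 in Dnmt3a mice, and the difference between the populations was 0.29 ± 0.29 (adjusted p = 1). Without Dnmt3a replicate 4 neither Ckm nor Gm47283 was called in Dnmt3a;Tnfr2KO mice, and without Dnmt3a;Tnfr2KO replicate 4 there were 26 calls. Both were also lost with at least 6 Mcpt8 UMIs per member. DESeq2 gave no adjusted p for Gm47283 in this comparison.

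**Figure D5:**
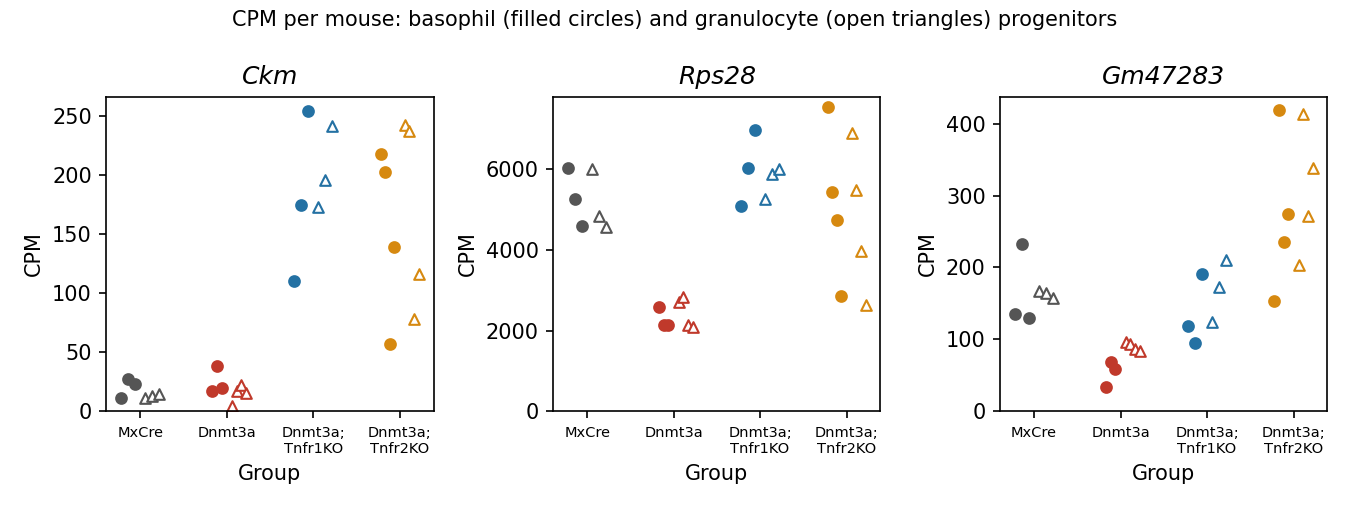
CPM of Ckm, Rps28 and Gm47283 per mouse, in members (filled circles) and granulocyte progenitors (open triangles) of the 4 groups; members of Dnmt3a replicate 1 are missing because it has none. In both populations Ckm is high in the receptor groups and Rps28 is low in Dnmt3a mice.

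The targeted genes and the ligand were too scarce in members for the fit. Tnfrsf1a had 9 UMIs in 427770 in MxCre members, 25 in 1094253 in Dnmt3a, 1 in 280099 in Tnfr1KO-labelled and 23 in 1037304 in Dnmt3a;Tnfr2KO members. Tnfrsf1b had 2, 9, 0 and 4 UMIs in the same order, where the 0 allows up to 10.7 CPM. Dnmt3a had 6, 27, 12 and 17 UMIs, and Tnf 1, 5, 13 and 2, the 13 from Tnfr1KO-labelled replicates 1 and 2. At these counts a loss of Tnfrsf1b in Dnmt3a;Tnfr2KO members was not detectable.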

How the data were processed

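Single cells sorted from the marrow of 14 mice were measured by 10x 3' RNA sequencing (version 3.1 chemistry, 12000 cells loaded per lane, per the labels' protocols). The deposited matrices hold raw UMI counts of 32285 genes, made with bcl2fastq 2.20.0.422 and Cell Ranger 6.0.0 on mm10/GRCm38, per the submitters' processing notes. The authors' counting merges reads of one molecule, does not scale for gene length and can split near-identical genes, ribosomal protein genes among them.

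Cells were kept from 1000 UMIs and 500 genes upwards where mitochondrial genes gave below 10% of the UMIs (1955 to 7745 a library, median depth 11275 to 39561 UMIs). Members were chosen by raw UMIs. Doublets were called against simulated doublets (0.8% per 1000 barcodes) and removed only as an alternative. UMIs were summed per mouse and population and tested by edgeR 4.0.16 quasi-likelihood (R 4.3.3, TMM, filterByExpr, Benjamini-Hochberg adjustment over all genes, adjusted p under 0.05), with the mouse as a block between populations and all groups in 1 model between genotypes, and DESeq2 1.42.0 as an alternative. Shares were tested by two-sided exact permutation over mice. CPM is per 1000000 UMIs of a sum. The procedure was tested on simulated data with 200 changed genes. Intervals and floors (3 UMIs or cells) cover counting error only.

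The planned minimum of 20 cells left too few mice for the tests of genotype and of Mcpt8 ranges, so 4 cells was used there, chosen after the cell numbers were seen. Named genes were, for populations, the 12 called genes in each direction of highest fold change with at least 50 CPM and one sign in every mouse, and for genotypes up to 10 with at least 20 CPM and no overlap, together with the targeted genes, Tnf and genes of the lists named by role. Of 353 list genes 352 were in the files. The members, gene lists and marker lists were chosen with earlier results of these data known. No sequences are shown, since none were used here. Some genes that the rules name are not reported here.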

Additional observations from a re-analysis of the deposited data

Results flagged for a closer look

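Some genes differed between genotypes to another extent in basophil progenitors than in granulocyte progenitors, by the edgeR test of the difference itself, over 11110 genes and with at least 4 cells of each population per mouse. That test called 17 genes for Dnmt3a against MxCre, 31 for Dnmt3a;Tnfr1KO against Dnmt3a, 12 for Dnmt3a;Tnfr2KO against Dnmt3a and 30 for Dnmt3a;Tnfr2KO against Dnmt3a;Tnfr1KO; DESeq2 called 0, 60, 0 and 31. Unadjusted p values lay below 0.05 for 508, 928, 401 and 866 genes. The 4 genes below were picked after their values had been seen: Prg2, Cma1 and Ccl3 define ranges of members, and Kit differed in level between them. The comparisons share groups. Each value is a difference of differences and moves with the granulocyte progenitors too, so it is not a change in members alone. Its SE was derived from the fold and the test statistic. For Dnmt3a;Tnfr1KO against Dnmt3a that SE was 0.82 for Cma1 and 0.36 for Prg2, below the 1.95 and 1.61 within members alone. The SEs and calls of this test therefore do not measure the spread of members between mice. Granulocyte progenitors of Dnmt3a;Tnfr1KO replicate 1 were shallow (median 2362.5 UMIs).

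Prg2, an eosinophil granule protein, gave a difference of -4.68 ± 0.46 (log2, SE) for Dnmt3a against MxCre, 3.87 ± 0.36 for Dnmt3a;Tnfr1KO against Dnmt3a, 1.46 ± 0.29 for Dnmt3a;Tnfr2KO against Dnmt3a and -2.41 ± 0.30 for Dnmt3a;Tnfr2KO against Dnmt3a;Tnfr1KO. Its level in members was 0 CPM in MxCre replicate 3, Dnmt3a;Tnfr1KO replicate 2 and Dnmt3a;Tnfr2KO replicate 3 and reached 5571 CPM in Dnmt3a;Tnfr2KO replicate 2, and every group overlapped every other. Granulocyte progenitors of the fitted mice held 0.767, 0.658 and 0.506 CPM in MxCre, 5.14, 5.44 and 1.03 in Dnmt3a, up to 4.94 in Dnmt3a;Tnfr1KO and 11.1, 55.6, 1.95 and 13.2 in Dnmt3a;Tnfr2KO. In members alone the 4 differences were -1.005, 2.34, 2.74 and 0.397 in the same order, so the last had the opposite sign to its difference of differences. Within members alone no difference of Prg2 between genotypes passed (adjusted p of 0.71 to 0.98). Of its 4062 UMIs in members, 4042 lay in 17 cells of 9 mice.

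Cma1, a mast cell chymase, gave 12.12 ± 0.82 for Dnmt3a;Tnfr1KO against Dnmt3a, 5.46 ± 0.49 for Dnmt3a;Tnfr2KO against Dnmt3a and -6.66 ± 1.01 for Dnmt3a;Tnfr2KO against Dnmt3a;Tnfr1KO. Members of 8 of 13 mice held none. The highest level, 3970 CPM in Dnmt3a;Tnfr1KO replicate 2, came from 2 cells, and the other mice of that group were at 0. A fitted fold of a gene at 0 in most mice depends on the prior count and is no bound. Granulocyte progenitors held 0 to 7.84 CPM in Dnmt3a, 0 in each Dnmt3a;Tnfr1KO mouse and 0.0908 to 1.26 in Dnmt3a;Tnfr2KO. In members alone the differences were 5.92, 3.66 and -2.27 in the same order. Within members alone the Cma1 differences did not pass (adjusted p of 0.38, 0.74 and 0.78). Kit, the stem cell factor receptor, gave 1.38 ± 0.32 for Dnmt3a;Tnfr1KO against Dnmt3a, with 102, 673 and 153 CPM in Dnmt3a;Tnfr1KO members, the highest in the same replicate 2, and 153, 71.5 and 73.9 in Dnmt3a members, and did not pass within members alone (adjusted p of 0.21).

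The chemokine gene Ccl3 gave 2.07 ± 0.48 for Dnmt3a against MxCre, -2.79 ± 0.37 for Dnmt3a;Tnfr2KO against Dnmt3a and -1.52 ± 0.39 for Dnmt3a;Tnfr2KO against Dnmt3a;Tnfr1KO. Members held 37.7, 493 and 30.6 CPM in MxCre, 1493, 140 and 751 in Dnmt3a, 1361, 0 and 0 in Dnmt3a;Tnfr1KO and 32.2, 64.2, 94.4 and 152 in Dnmt3a;Tnfr2KO mice. The Dnmt3a and Dnmt3a;Tnfr2KO mice overlapped, since Dnmt3a replicate 3 lay below Dnmt3a;Tnfr2KO replicate 4. Granulocyte progenitors held 0.411 to 9.09 CPM over all mice. Within members alone these differences were 2.05, -3.004 and -2.498 and did not pass (adjusted p of 0.64, 0.41 and 0.65).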

How the results depend on the processing

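No difference in share, or in the ratio to early cells, passed its test under any alternative run. With the replicate block, or with 1 mouse left out of groups of 3 and 4, the test could not reach a p of 0.05, so this says nothing about stability. Leaving out 1 mouse, the share differences ranged from -0.0272 to 0.153 percentage points (Dnmt3a against MxCre), -0.213 to -0.0330 (Dnmt3a;Tnfr1KO against Dnmt3a), -0.104 to 0.0758 (Dnmt3a;Tnfr2KO against Dnmt3a, above 0 without Dnmt3a replicate 3 and without Dnmt3a;Tnfr2KO replicate 3) and 0.0917 to 0.133 (Dnmt3a;Tnfr2KO against Dnmt3a;Tnfr1KO). The log2 ratios ranged from 0.98 to 2.59, -1.89 to -0.28, -1.76 to -0.15 and -0.15 to 0.38. The last turned to -0.15 without Dnmt3a;Tnfr1KO replicate 2, -0.05 without Dnmt3a;Tnfr2KO replicate 1, -0.25 after thinning to 5000 UMIs and -0.12 with at least 6 Mcpt8 UMIs.

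Genes called against early and granulocyte progenitors numbered 594 and 1448, with 225 and 704 by DESeq2, 296 and 656 without the mouse block, 255 and 682 after thinning, 1645 and 3215 with at least 4 cells, and 280 to 571 and 741 to 1008 without 1 mouse. The split by Mcpt8, on which nothing is rested, gave 232 genes, 107 without the mouse block, 70 after thinning and 123 to 326 without 1 mouse.

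For Dnmt3a against MxCre, Dnmt3a;Tnfr1KO against Dnmt3a, Dnmt3a;Tnfr2KO against Dnmt3a and Dnmt3a;Tnfr2KO against Dnmt3a;Tnfr1KO, members gave 0, 5, 2 and 0 calls. DESeq2 gave 12, 13, 19 and 1, no filter on low counts 47, 51, 56 and 29, and omission of 1 mouse 0 to 0, 0 to 8, 0 to 26 and 0 to 0. The 13 DESeq2 calls did not include Ckm, and the 19 included neither Ckm nor Gm47283. Fits of only the 2 groups gave 10 and 8 calls in the first pair of comparisons, at least 6 Mcpt8 UMIs gave 1 for Dnmt3a;Tnfr1KO and 0 for Dnmt3a;Tnfr2KO against Dnmt3a, and at least 10 cells gave 8 for the latter. With the replicate number as a replicate block the first 3 gave 2, 0 and 1. Same-numbered samples correlated at -0.50 to 0.45, above 0.1 in 8 of 19 pairs. Samples with different numbers were not compared, so these values cannot decide whether the numbers pair the mice. The differences between populations gave 8 to 22, 14 to 147, 5 to 17 and 10 to 37 calls without 1 mouse, and DESeq2 gave 0, 60 and 0 in the first 3. The causes of these changes were not tested. For named genes no value turned; calls were lost in 3 of the values against early cells (224 kept), 2 against granulocyte progenitors (238 kept), and 29 (35 kept) and 5 (23 kept) for Dnmt3a;Tnfr1KO and Dnmt3a;Tnfr2KO against Dnmt3a. Members number 0 to 31 in a mouse, so small differences between genotypes may not be detectable, and genotype and Mcpt8-range tests could not be fitted at 20 cells.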
